A study of Homo sapiens with 4 samples.

Results

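ATF4 and 9 regulators of the same stress response were followed through RNA sequencing of wild-type Huh7 and PLC cells, 2 established lines of human hepatocellular carcinoma (HCC). The genes were the rows of the deposited count table with the symbols ATF4, ATF5, ATF3, DDIT3, CEBPB, CEBPG, TRIB3, CHAC1, SESN2 and DDIT4, which are 10 of its 59652 genes. The rule reads the symbol and no measured value, but the 10 genes and the gene lists used below were chosen with earlier results of these data known. The medium of all cells was glucose-free DMEM with fetal bovine serum and antibiotics, to which 5 mM (low) or 25 mM (high) glucose was added, and exposure lasted 48 h. There was 1 library for each line and each glucose concentration, hence 4 libraries and no replicate culture.

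ATF4 is a transcription factor of the integrated stress response. When kinases that sense amino acid shortage, misfolded protein in the endoplasmic reticulum (ER), viral RNA or haem shortage phosphorylate the initiation factor eIF2, most translation slows while the ATF4 message is translated better, because of short upstream reading frames. ATF4 pairs with C/EBP proteins and switches on genes of amino acid supply, together with genes that feed back on the response. The counts below are RNA and carry no information on ATF4 protein or on eIF2 phosphorylation.

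The DNA element through which ATF4 and its C/EBP partners are known to act, the C/EBP-ATF composite element, was searched for as TGATGNAA (N is any base) on both strands around the RefSeq transcription starts of the 10 genes. The windows ran from 1000 bases before to 500 bases after each of 19 starts. The letters occurred for 7 of the 10 genes, whereas 19.8% of all 27305 genes had them in windows of this length. Counted by window, they occurred in 11 of the 19, against 17.2% of all 35116 windows. In narrower windows of 300 bases, they occurred for 3 of the 10 genes against 4.46% of all genes. The cyclic AMP response element, TGACGTCA, which CREB and ATF family proteins bind, occurred in the wider windows of 1 of the 10 genes, ATF3, against 3.36% of all genes. No match of one motif overlapped a match of the other.

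The matches are shown because they are the stretches of DNA that 7 of the 10 genes have in common. Each line is 30 bases on the strand of the gene, 5′ to 3′, with the matched letters in capitals. Where the match lies on the opposite strand, the capitals are its reverse complement.
ATF3: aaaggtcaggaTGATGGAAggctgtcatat
ATF3, cyclic AMP response element: tagtttcagctTGACGTCAagcctctttga
CEBPG: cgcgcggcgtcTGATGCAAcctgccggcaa
CHAC1, opposite strand: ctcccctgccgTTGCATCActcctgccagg
DDIT3, opposite strand: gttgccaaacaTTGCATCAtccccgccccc
DDIT4: gtcctcggtccTGATGCAAccgtctggatc
SESN2, opposite strand: gtgaagtccctTTTCATCAcgcaaccctaa
TRIB3, opposite strand: ttagctccggtTTGCATCAcccggaccggg

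On GRCh38, with features named from GENCODE release 44, the ATF3 composite match lay upstream of the gene at chr1:212565205-212565234, 191 bases before a start. Its cyclic AMP response element lay in an intron at chr1:212614510-212614539, 497 bases before the other start. The CEBPG match, at chr19:33374060-33374089, was the nearest to a start, 42 bases before it and in an intron. The CHAC1 match, at chr15:40953251-40953280, lay 209 bases before the start in an untranslated exon of a longer transcript. The DDIT3 match, at chr12:57520802-57520831, lay on the plus strand, opposite to the gene, 303 bases before a start and in an intron. The SESN2 match, at chr1:28259211-28259240, lay 296 bases upstream, and the DDIT4 match, at chr10:72272967-72272996, was the farthest from its start, 946 bases upstream. TRIB3 differed from the others by holding the same 30 bases 3 times in an untranslated exon, at chr20:380881-380910, chr20:380914-380943 and chr20:380947-380976, with matches 403, 370 and 337 bases before a start. For ATF4, ATF5 and CEBPB, neither run of letters was found in these windows. A match describes the sequence and does not show that a protein was bound in these cells.

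The counted reads numbered 21376239 (Huh7, 5 mM), 30085303 (Huh7, 25 mM), 30279716 (PLC, 5 mM) and 16049686 (PLC, 25 mM). The hepatocyte genes ALB, AFP, APOB, SERPINA1, FGB and HNF4A were read in every library, from 3282 reads (SERPINA1 in PLC cells at 5 mM) upwards, whereas TTR had 4 and 0 reads and APOA1 26 and 52 reads in the 2 PLC libraries. Of 8 markers of blood, endothelial, fibroblast and muscle cells, 6 had at most 5 reads in any library, among them the defining markers PTPRC, CD3E, VWF and DES. The other two, PECAM1 and COL1A2, had 392 and 593 and 63 and 126 reads in Huh7 cells, and 27 and 36 and 0 and 0 reads in PLC cells, in each case at 5 mM and 25 mM. The libraries were made from bulk RNA, in which fewer cells with a transcript and less of it per cell cannot be told apart.

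The question put to the data was how these 10 genes stood in low-glucose against high-glucose medium. In both lines 9 of the 10, all but ATF5, were lower at 25 mM than at 5 mM past the fold threshold stated in the study for its lncRNAs. The level is given as FPKM, reads per kilobase of gene scaled to the counted reads of the library. The ratio of 25 mM to 5 mM within a line was taken with 0.1 added to both FPKM values, and a gene was past the threshold with a ratio over 1.5 or under 0.67 when either library of the line exceeded 0.5 FPKM. Among all genes over the FPKM minimum, 13.7% were lower in Huh7 cells, 17% were lower in PLC cells and 3.82% were lower in both, while 14.1%, 26.2% and 5.3% were higher. With the size factors of DESeq2 in place of library totals, the split of all genes in PLC cells was 4648 lower and 4734 higher, in place of 3700 and 5709, and the count of the 10 genes was still 9 in each line. The median log2 ratio of the 10 genes was -1.72 in Huh7 and -1.68 in PLC cells, compared with 0.037 and 0.109 over all genes above the minimum. Other scaling lowered every log2 ratio by at most 0.039 in Huh7 and by 0.121 (TMM) or 0.133 (DESeq2 size factors) in PLC cells.

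To ask for a glucose change common to the lines, counts were fitted with edgeR (quasi-likelihood) with line and glucose as terms, and p-values were adjusted by Benjamini-Hochberg over 23217 genes. Of the 10 genes, 7 fell at 25 mM with an adjusted p under 0.05 (CHAC1, TRIB3, SESN2, DDIT4, ATF3, CEBPB and CEBPG), against 0.314% of all genes tested that were lower and 0.0646% that were higher (0.379% in all). ATF4 and DDIT3 did not pass, with edgeR adjusted p = 0.103 and 0.112, and nor did ATF5. The median shared log2 fold change of the 10 genes was -1.79, against -0.012 for all genes. The test has 1 residual degree of freedom, and the lines stand in for replicates that were not made. Without the line as a block, 0 of the 10 genes passed the edgeR test, and 4 had an unadjusted p under 0.05.

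**Figure D1:**
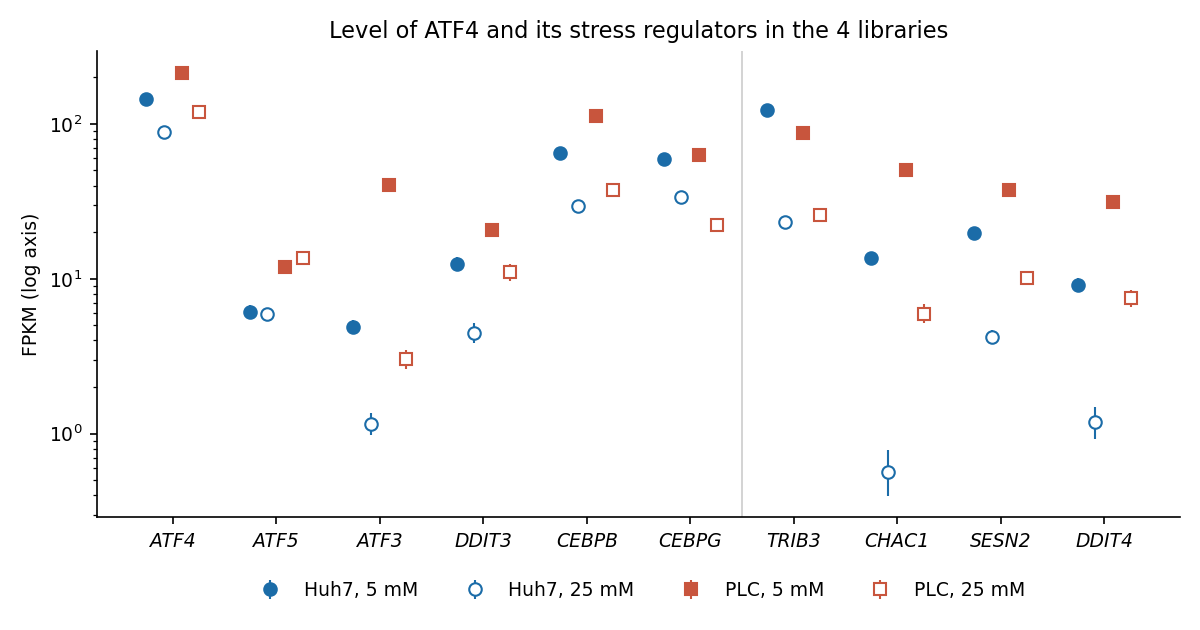
FPKM (log axis) of the 10 genes in the 4 libraries, with transcription factors on the left of the line and feedback regulators and effectors on the right. Filled symbols are 5 mM glucose, open symbols 25 mM, circles Huh7 and squares PLC, and bars are exact Poisson 95% intervals for counting error only. The open symbol lies below the filled symbol in both lines for every gene except ATF5, which was 12.0 and 13.6 FPKM in PLC cells.

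Among the transcription factors, ATF4 itself (chr22:39519672-39522683, plus strand) had the highest level of the 10 genes in all 4 libraries. Its level was 144 FPKM in Huh7 cells at 5 mM and 89.1 FPKM at 25 mM, and 213 and 119 FPKM in PLC cells. Both high-glucose libraries were therefore below both low-glucose libraries, and the change was the smallest of the 9 lower genes in either line. The ratio was 0.618 in Huh7 cells (95% interval 0.599 to 0.636, from 8978 and 7800 reads) and 0.560 in PLC cells (0.543 to 0.577, from 18796 and 5574 reads). These and the later ratio intervals are exact (Clopper-Pearson), leave out the added 0.1 and cover counting error only. The shared log2 fold change was -0.85 ± 0.20 (SE), with edgeR adjusted p = 0.103, and the call depended on the method: adjusted p was 0.0118 without the filter on low counts and 0.0125 with DESeq2, and over all alternatives it ran from 0.0118 to 1. The pseudogenes of ATF4, which could take reads from it, held at most 48 reads in a library (ATF4P3), against 5574 reads or more for ATF4.

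ATF5 (chr19:49928702-49933935, plus strand), the closest relative of ATF4 and also known to be translated under eIF2 phosphorylation, was the gene of the 10 that did not follow this direction. It was read at 6.12 and 5.95 FPKM in Huh7 and at 12.0 and 13.6 FPKM in PLC cells, at 5 mM and 25 mM. The ratio was 0.974 (0.851 to 1.12) in Huh7 cells, with 1 inside the interval, and 1.13 (1.03 to 1.25) in PLC cells, just above it. The shared log2 fold change was -0.01 ± 0.26 (SE), with edgeR adjusted p = 0.999. Of its exon bases, 19.5% also belong to exons of NUP62 on the opposite strand, which had 1714 to 3806 reads. Whether the counting used strand is not given in the sources used here, and without strand the reads of these 2 genes cannot be told apart there.

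ATF3 (chr1:212565334-212620777, plus strand), a stress-induced factor of the ATF family that mostly represses its targets, had the widest range of the transcription factors. It stood at 4.90 FPKM in Huh7 cells at 5 mM and 1.16 FPKM at 25 mM, and at 40.3 and 3.04 FPKM in PLC cells. The PLC library at 5 mM was thus far above the other three, and the PLC library at 25 mM was below the Huh7 library at 5 mM. The ratio was 0.252 (0.194 to 0.287) in Huh7 and 0.0777 (0.0651 to 0.0870) in PLC cells, a 12.9-fold lower level in the latter and the lowest PLC ratio of the 10 genes. ATF3 fell by 3.01 ± 0.37 (SE) on the log2 scale across both lines (edgeR adjusted p = 0.00329).

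DDIT3 (chr12:57516588-57521737, minus strand) encodes CHOP, the factor that carries prolonged ER stress towards cell death. Its level was 12.4 and 4.48 FPKM in Huh7 and 20.7 and 11.01 FPKM in PLC cells. Both high-glucose libraries were below both low-glucose libraries, although the PLC library at 25 mM came close to the Huh7 library at 5 mM. The ratio was 0.366 (0.299 to 0.433) in Huh7 and 0.534 (0.458 to 0.617) in PLC cells. The shared log2 fold change was -1.27 ± 0.30 (SE), with edgeR adjusted p = 0.112, and 0.00969 without the filter on low counts (0.00969 to 1 over all alternatives). MARS1, on the opposite strand, shares 27.2% of the exon bases of DDIT3 and had 6889 and 6086 reads in Huh7 and 23102 and 5650 reads in PLC cells, compared with 176 to 819 reads for DDIT3. MBD6, also on the opposite strand, shares 4.44% of the exon bases of DDIT3 and had 2180 and 2353 reads in Huh7 and 427 and 306 reads in PLC cells. The share of MARS1 or MBD6 reads in the DDIT3 counts was not tested.

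CEBPB and CEBPG encode C/EBP proteins that can pair with ATF4, and both fell. CEBPB (chr20:50190830-50192668, plus strand) was read at 64.7 and 29.3 FPKM in Huh7 and at 113 and 37.7 FPKM in PLC cells. Both low-glucose libraries lay above both high-glucose libraries, as for ATF4, and the ratio was 0.454 (0.426 to 0.482) in Huh7 and 0.335 (0.313 to 0.356) in PLC cells. CEBPG (chr19:33373685-33382686, plus strand), a C/EBP protein that lacks an activation domain of its own, was at 59.4 and 33.7 FPKM in Huh7 and at 63.0 and 22.1 FPKM in PLC cells. The 2 lines had nearly the same CEBPG level at 5 mM and moved apart at 25 mM, with ratios of 0.568 (0.544 to 0.591) and 0.352 (0.332 to 0.372). On the log2 scale CEBPB fell by 1.44 ± 0.23 (SE) and CEBPG fell by 1.24 ± 0.24 (SE), with edgeR adjusted p = 0.0192 and 0.0463. These 2 calls were the least firm of the 7: CEBPB had adjusted p = 0.0678 and CEBPG 0.121 with limma, and with at least 10 counts required in every library edgeR gave 0.0537 and 0.104. CEBPG alone also missed with RLE size factors (edgeR adjusted p = 0.0514). Over all alternatives the adjusted p ran from 4.88e-06 to 1 for CEBPB and from 7.73e-05 to 1 for CEBPG, with 1 in the edgeR fit without the line block. CEBPB-AS1, which shares 12.6% of the exon bases of CEBPB on the opposite strand, had 30 to 59 reads.

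The 4 feedback regulators and effectors all fell, with larger changes than the factors other than ATF3. CHAC1 (chr15:40952962-40956512, plus strand), an enzyme that breaks down glutathione, had the lowest ratio of the 10 genes in Huh7 cells. Its level was 13.5 and 0.567 FPKM in Huh7 and 50.5 and 5.95 FPKM in PLC cells, so that all 4 libraries were well separated and both high-glucose libraries were below both low-glucose libraries. The ratio was 0.0490 in Huh7 cells (0.0289 to 0.0590), a 20.4-fold lower level, and 0.120 in PLC cells (0.102 to 0.136). The Huh7 library at 25 mM held 35 CHAC1 reads (exact Poisson 95% interval 24.4 to 48.7), and with 1 FPKM added in place of 0.1 the Huh7 ratio was 0.108. CHAC1 fell by 3.82 ± 0.35 (SE) on the log2 scale, with edgeR adjusted p = 0.000429, rank 3 by p among 23217 genes.

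TRIB3 (chr20:362835-397559, plus strand), a pseudokinase that binds ATF4 and CHOP and restrains them, was the second highest of the 10 genes in Huh7 cells at 5 mM. It stood at 122 and 23.2 FPKM in Huh7 and at 87.7 and 25.6 FPKM in PLC cells. The lines were much closer to each other than the glucose groups were, and this was the gene of the 10 whose level at 5 mM was lower in PLC cells. The ratio was 0.190 (0.181 to 0.199) in Huh7 and 0.293 (0.275 to 0.310) in PLC cells. TRIB3 fell by 2.17 ± 0.23 (SE) on the log2 scale (edgeR adjusted p = 0.00128).

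SESN2 and DDIT4 both encode restraints on the growth kinase complex mTORC1, and both fell. SESN2 (chr1:28259518-28282491, plus strand), a leucine-binding sestrin, was read at 19.8 and 4.23 FPKM in Huh7 and at 37.5 and 10.2 FPKM in PLC cells, with ratios of 0.218 (0.192 to 0.238) and 0.273 (0.248 to 0.297). DDIT4 (chr10:72273924-72276036, plus strand), also known as REDD1, was at 9.11 and 1.18 FPKM in Huh7 and at 31.1 and 7.52 FPKM in PLC cells, with ratios of 0.139 (0.0996 to 0.167) and 0.244 (0.211 to 0.276). For both genes the PLC library at 5 mM was the highest of the 4 and the Huh7 library at 25 mM the lowest. SESN2 fell by 2.13 ± 0.24 (SE) and DDIT4 fell by 2.55 ± 0.31 (SE) on the log2 scale, with edgeR adjusted p = 0.00183 and 0.00287. The Huh7 ratio of DDIT4 rested on 400 and 73 reads and was 0.216 with 1 FPKM added. DDIT4-AS1, which shares 41.2% of the exon bases of DDIT4 on the opposite strand, had 0 reads in all 4 libraries.

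**Figure D2:**
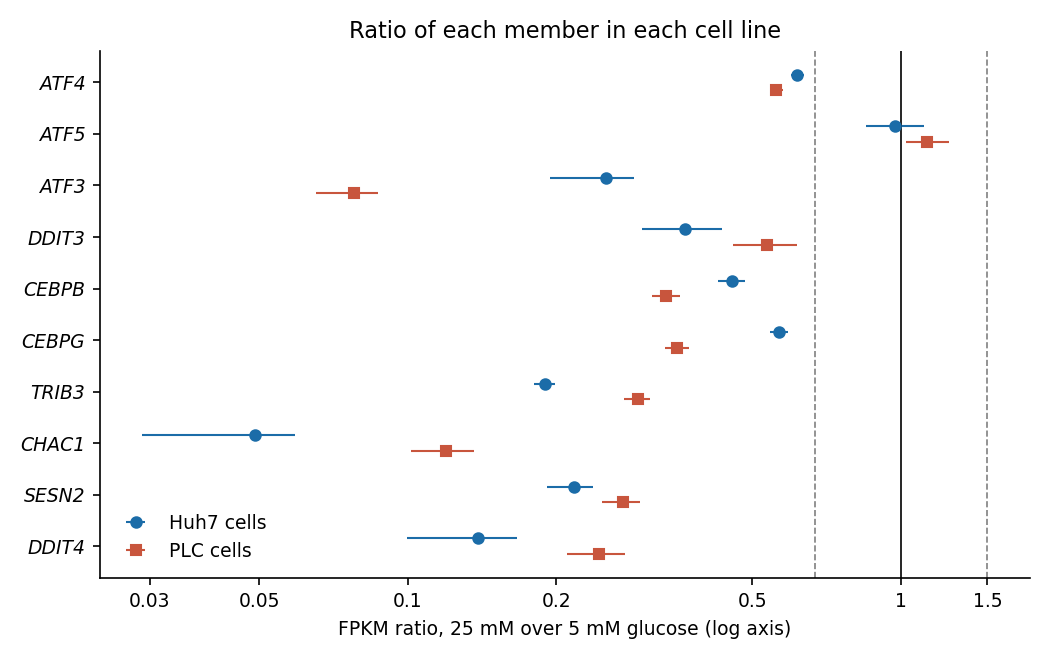
Ratio of FPKM at 25 mM to FPKM at 5 mM glucose (log axis) for each of the 10 genes, with circles for Huh7 cells and squares for PLC cells. Points include the added 0.1 FPKM, bars are exact 95% intervals without it (counting error only), and dashed lines mark the ratios 0.67 and 1.5. For 9 genes both points lie left of 0.67, and both points of ATF5 lie near 1.

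The order of levels within a library, on the FPKM scale, also differed between the glucose concentrations. In Huh7 cells the order at 5 mM was ATF4, TRIB3, CEBPB, CEBPG, SESN2, CHAC1, DDIT3, DDIT4, ATF5 and ATF3, and at 25 mM it was ATF4, CEBPG, CEBPB, TRIB3, ATF5, DDIT3, SESN2, DDIT4, ATF3 and CHAC1. ATF5 thus had rank 9 at 5 mM and rank 5 at 25 mM in Huh7 cells, with nearly the same level. In PLC cells the order at 5 mM was ATF4, CEBPB, TRIB3, CEBPG, CHAC1, ATF3, SESN2, DDIT4, DDIT3 and ATF5, and at 25 mM it was ATF4, CEBPB, TRIB3, CEBPG, ATF5, DDIT3, SESN2, DDIT4, CHAC1 and ATF3. ATF4, CEBPB, CEBPG and TRIB3 were the top 4 in every library. Neighbours whose counting intervals overlapped were CHAC1 and DDIT3 in Huh7 cells at 5 mM, DDIT3 and SESN2 as well as DDIT4 and ATF3 in Huh7 cells at 25 mM, and DDIT3 and SESN2 as well as DDIT4 and CHAC1 in PLC cells at 25 mM. The summed FPKM of the 10 genes was 457 and 193 in Huh7 and 669 and 256 in PLC cells, at 5 mM and 25 mM.

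The 2 lines also differed in baseline. Of the 10 genes, 6 were higher in PLC than in Huh7 cells in the line term of the same edgeR fit (CHAC1, DDIT4, ATF3, SESN2, ATF5 and DDIT3) and 0 were lower, against 21.1% of all genes higher and 21.8% lower (42.9% in either direction). DESeq2 and limma also gave 6 calls each among the 10 genes. CHAC1 was 3.71 times as high in PLC cells at 5 mM (3.42 to 4.08) and 9.07 times as high at 25 mM (7.30 to 15.5), with a line difference of 2.54 ± 0.34 (SE) on the log2 scale and edgeR adjusted p = 4.9e-05. DDIT4 was 3.39 times as high at 5 mM and 5.95 times as high at 25 mM, and its line difference was 2.19 ± 0.30 (SE, edgeR adjusted p = 7.05e-05). For ATF3 the order was the other way, with 8.08 times the Huh7 level at 5 mM and 2.49 times at 25 mM (line difference 2.27 ± 0.37, SE, edgeR adjusted p = 0.000242). The differences of SESN2, ATF5 and DDIT3 were 1.10, 1.09 and 1.02 on the log2 scale (edgeR adjusted p = 0.00216, 0.00466 and 0.0144). ATF4, at 1.48 and 1.34 times the Huh7 level, and CEBPB, at 1.74 and 1.28 times, missed the threshold narrowly (edgeR adjusted p = 0.0558 and 0.0540), and CEBPG and TRIB3 had edgeR adjusted p = 0.417 and 0.581. This term assumes the same glucose effect in both lines.

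That assumption could not be tested, since 4 libraries leave no degree of freedom for a different response of the lines, and only counting error can be set against it. The ratio in PLC cells was divided by the ratio in Huh7 cells, without the added 0.1. By this measure 4 genes were lowered further in PLC cells, 5 further in Huh7 cells, and the interval of ATF5 included 1 (1.17, 0.988 to 1.38). Across 17342 genes, the interval was below 1 for 22.8% and above 1 for 29.5%, so an interval off 1 was common. The 4 genes with a lower ratio in PLC cells were transcription factors. They were ATF3 at 0.319 (0.251 to 0.404), CEBPG at 0.620 (0.578 to 0.665), CEBPB at 0.737 (0.674 to 0.806) and ATF4 at 0.906 (0.869 to 0.946). The 5 genes with a lower ratio in Huh7 cells were all 4 effectors and DDIT3. CHAC1 was at 2.81 (1.94 to 4.07), DDIT4 at 1.86 (1.41 to 2.47), TRIB3 at 1.54 (1.43 to 1.66), DDIT3 at 1.48 (1.17 to 1.86) and SESN2 at 1.27 (1.11 to 1.46). The depth of the libraries differed in opposite directions, with the deeper library at 25 mM in Huh7 and at 5 mM in PLC cells, and its part in these values was not tested.

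**Figure D3:**
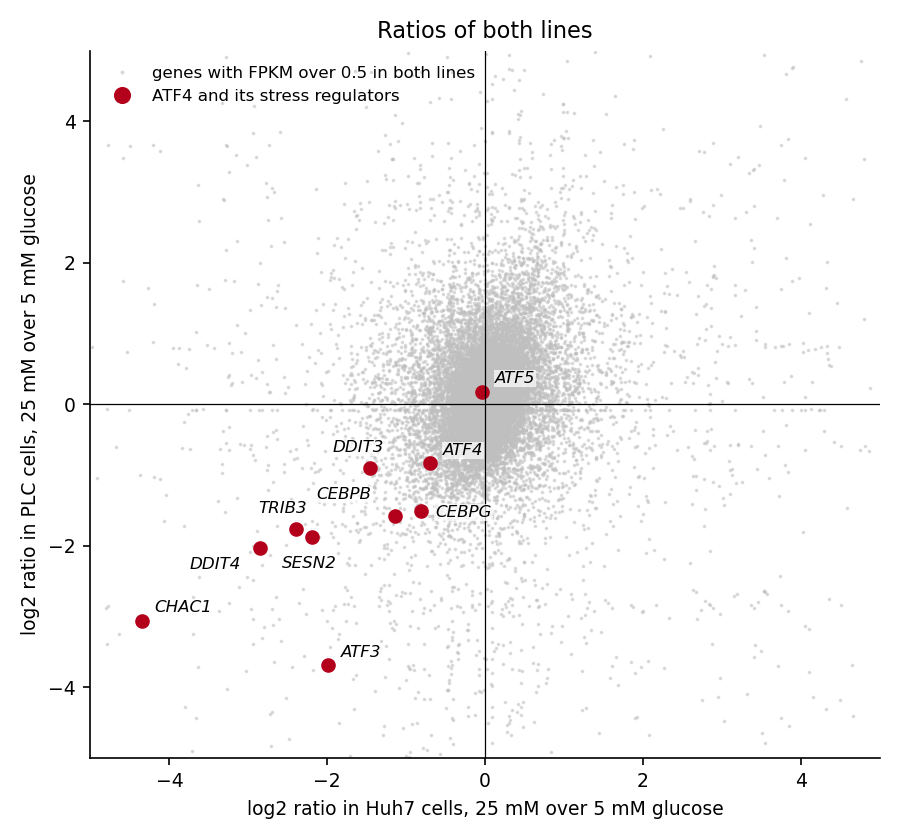
Log2 ratio of 25 mM to 5 mM glucose in Huh7 cells (horizontal axis) and PLC cells (vertical axis) for genes with FPKM over 0.5 in both lines (grey) and for the 10 genes (red). The axes end at 5 in either direction and leave out 46 genes, showing 18062. Of the red points, 9 lie in the lower left quadrant, ATF3 lowest and CHAC1 farthest left, and ATF5 lies near the centre.

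The other genes of the pathway were read from lists of known members, described here by counts from the same edgeR fit. Over all genes tested, 0.314% were lower at an adjusted p under 0.05, and at an unadjusted p under 0.05 4.36% were lower and 4.14% higher. Of 12 amino acid synthesis genes known as ATF4 targets, 7 fell and 0 rose, with a median log2 fold change of -1.20 (DESeq2 called 7 lower, limma 1). ASNS, asparagine synthetase, fell by 2.47 ± 0.38 (SE, edgeR adjusted p = 0.0158) and MTHFD2, a mitochondrial one-carbon enzyme, fell by 1.61 ± 0.21 (SE, edgeR adjusted p = 0.00492). PSAT1, PHGDH, ALDH1L2, CTH and GPT2 were the other five, at -1.11 to -1.73. ALDH18A1, which starts proline synthesis, was at 0.19 (edgeR adjusted p = 0.933), and PSPH, SHMT2, PYCR1 and CBS, at -0.40 to -0.75, did not pass either. Without the line as a block, edgeR called 0 genes in this and every other list.

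Of 8 amino acid transporter genes tested, 5 fell and 0 rose, with a median log2 fold change of -1.52 (DESeq2 called 7 lower, limma 4). SLC7A11, the cystine importer, had 8677 and 2428 reads in Huh7 and 9098 and 1712 reads in PLC cells and fell by 1.99 ± 0.24 (SE, edgeR adjusted p = 0.00287). SLC1A4, SLC7A5, SLC7A1 and SLC3A2 fell as well, whereas SLC38A2 was at -0.30 (edgeR adjusted p = 0.764). Of 10 secreted and nuclear stress genes tested, 5 fell and 0 rose (median -1.39), with 6 lower by DESeq2 and 1 by limma. STC2, a secreted glycoprotein, fell by 3.13 ± 0.28 (SE, edgeR adjusted p = 0.000429), and JDP2, ADM2, VLDLR and NUPR1 were the other four. GDF15, a stress-induced hormone, had ratios of 0.248 in Huh7 and 0.856 in PLC cells and did not pass (edgeR adjusted p = 0.156). FGF21, a liver hormone, had 10 and 0 reads in Huh7 and 4 and 0 reads in PLC cells and was too low to test. Of the 73 genes lower at 25 mM by edgeR, 7 belong to the 10 genes and a further 19 to the lists, together 35.6%. The lists hold 118 genes besides the 10, and 23217 genes were tested. Since the 10 genes and the lists were chosen with earlier results of these data known, this share is a description and no test of enrichment.

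Among 11 eIF2 kinases, phosphatase subunits and relays, edgeR called 0, with 2 lower and 0 higher at an unadjusted p under 0.05, DESeq2 called 1 lower and limma called 0. The share at an unadjusted p, 2 of 11, stood above the 4.36% of all genes. The kinases EIF2AK3 (PERK) and EIF2AK4 (GCN2) had ratios of 1.18 and 1.17 in Huh7 and 0.728 and 1.05 in PLC cells. PPP1R15A (GADD34), the subunit that directs the phosphatase to eIF2 and a known ATF4 target, stood apart in the list at -1.35 (edgeR adjusted p = 0.102), with ratios of 0.675 and 0.256.

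Of 14 genes of the ATF6 and XBP1 arms, which are the branches of the unfolded protein response that do not pass through eIF2, 1 fell. This was HERPUD1, a membrane protein of ER degradation, at -1.12 ± 0.21 (SE, edgeR adjusted p = 0.0467). DESeq2 also called 1 and limma 0, and at an unadjusted p under 0.05 edgeR had 2 lower and 2 higher. The 2 lower were HERPUD1 and ERN1, both past the lower ratio threshold in both lines. ERN1 had ratios of 0.511 in Huh7 and 0.594 in PLC cells and a log2 fold change of -0.97 (edgeR adjusted p = 0.134). The 2 higher were SDF2L1 and CRELD2, which act in ER protein folding, with ratios of 1.47 and 1.22 in Huh7 and 2.13 and 2.84 in PLC cells, and PDIA4, a disulphide isomerase, was at 1.14 and 1.60. HSPA5, the main ER chaperone, had 18559 and 29428 reads in Huh7 and 34438 and 19296 reads in PLC cells, which gave ratios of 1.13 and 1.06 and a log2 fold change of 0.05 (edgeR adjusted p = 0.988). The median of the list was -0.12.

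Relatives of the 10 genes in their own families were set beside them. Of 16 relatives tested, edgeR, DESeq2 and limma each called 0, with 1 lower and 1 higher at an unadjusted p under 0.05 in edgeR, and the median log2 fold change was -0.06. CHAC2, the second glutathione-degrading enzyme, was at -0.03, SESN1 at -0.02 and SESN3 at 0.41 on the same scale. The 1 lower was TRIB1, at -0.64. The 1 higher was CREB3L3, at 1.17 (edgeR adjusted p = 0.316), with ratios of 1.385 in Huh7 and 4.01 in PLC cells. BATF3 was at -1.07 (edgeR adjusted p = 0.804), with 16 and 21 reads in Huh7 and 52 and 7 reads in PLC cells. CEBPA, a C/EBP factor of mature hepatocytes, had 3807 and 5940 reads in Huh7 and 279 and 126 reads in PLC cells. Scaled to library totals, these gave ratios of 1.11 and 0.856, and the shared log2 fold change was -0.10 (edgeR adjusted p = 0.978).

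SESN2 is also a known target of p53 and DDIT4 of hypoxia, and ATF3 is an immediate early gene as well, so lists of these programmes were counted. Of 10 p53 targets edgeR called 0 (2 lower and 0 higher at an unadjusted p under 0.05), as did DESeq2 and limma, and the median was -0.25. Those 2 of 10, CDKN1A and GDF15, also stood above the share of all genes, and GDF15 was counted among the secreted and nuclear stress genes as well. CDKN1A, the p21 cell cycle inhibitor, was at -0.89 (edgeR adjusted p = 0.456). Of 9 hypoxia targets tested edgeR called 0 (1 lower and 1 higher at an unadjusted p under 0.05), DESeq2 called 1 lower and limma 0, and the median was 0.12. In Huh7 cells 3 of the 7 over the FPKM minimum were past the higher threshold (NDRG1, PDK1 and P4HA1) and 1 past the lower (VEGFA), against 14.1% and 13.7% of all genes. In PLC cells 0 of 6 were past the higher and 2 past the lower threshold (VEGFA and ADM), against 26.2% and 17%. The shared fit does not show such a difference between lines. Of 8 immediate early genes tested 1 fell, the AP-1 factor JUN at -1.55 ± 0.26 (SE, edgeR adjusted p = 0.0244), with 3 lower and 0 higher at an unadjusted p under 0.05, 3 lower by DESeq2 and 0 by limma. JUN, DUSP1 and MYC were past the ratio threshold in both lines, DUSP1 at 0.567 in Huh7 and 0.306 in PLC cells (edgeR adjusted p = 0.0521) and MYC at 0.633 and 0.546 (edgeR adjusted p = 0.144). The median of the list was 0.01, and FOS was at 0.70 (edgeR adjusted p = 0.778). VEGFA, GDF15 and SESN1 each stand in 2 of the lists. Among the liver cell markers, edgeR, DESeq2 and limma called 0 of 8, with 0 lower and 4 higher at an unadjusted p under 0.05 in edgeR, against 4.14% of all genes. In PLC cells 4 of the 7 over the FPKM minimum were past the higher threshold, namely APOA1 (3.46), AFP (3.30), SERPINA1 (2.34) and FGB (1.97), while in Huh7 cells APOA1 (1.51) was. Their part in the results was not tested.

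**Figure D4:**
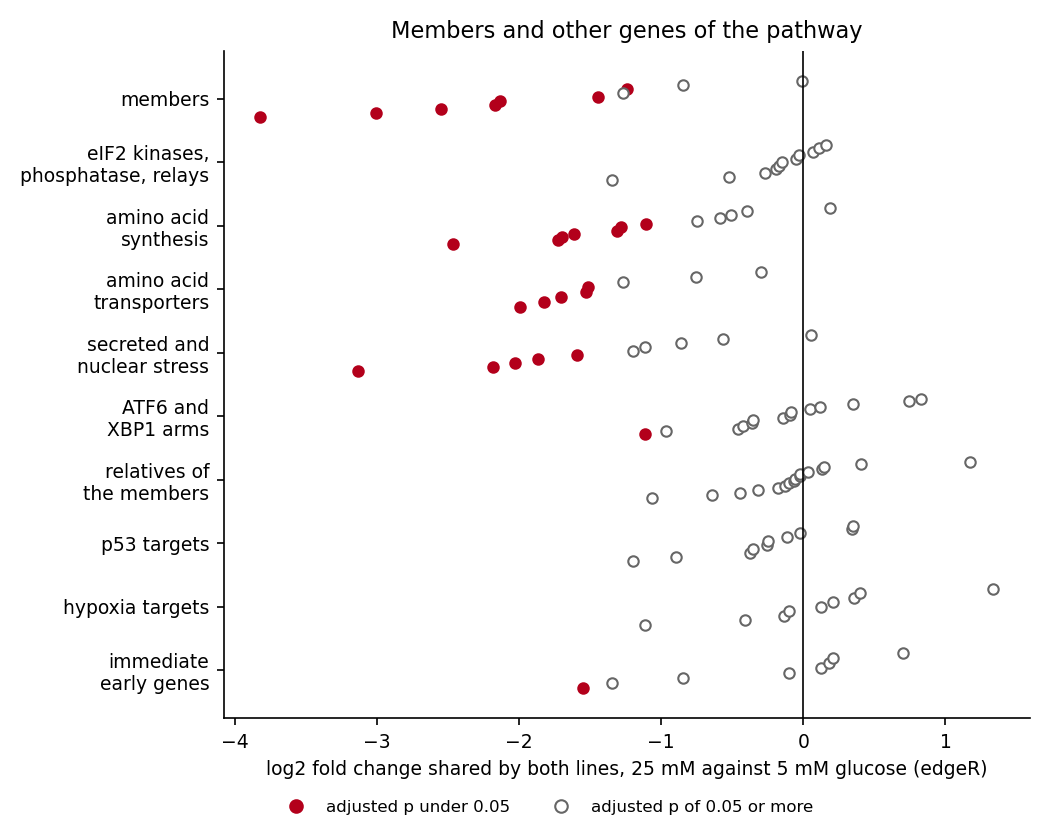
Log2 fold change of 25 mM against 5 mM glucose shared by both lines (edgeR) for the 10 genes (members) and the genes tested in each list, 1 point a gene. Filled points had an adjusted p under 0.05. The 7, 7, 5 and 5 filled points of the 10 genes and of the lists of synthesis, transport and stress genes all lie left of -1, and the lists of upstream genes, relatives, p53 targets and hypoxia targets hold none.

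By a distance that counts the size of changes as well as their direction, the genes nearest to ATF4 over the 4 libraries were not among the other regulators. Likeness was the Euclidean distance between centred log2(FPKM + 0.1) values over the 4 libraries, for 9778 genes with at least 100 reads in each. PSPH, the last enzyme of serine synthesis, was nearest with a distance of 0.110, from 57.4 and 38.2 FPKM in Huh7 and 82.7 and 49.4 FPKM in PLC cells. AC005261.1, the glutamine transporter gene SLC38A1, the long noncoding RNA LUCAT1 and the zinc finger gene CASZ1 followed at 0.117, 0.133, 0.144 and 0.152. Among the 7 other regulators with enough reads, CEBPB was nearest at rank 688 and ATF3 farthest at rank 9461. A gene that fell in both lines but further than ATF4 ranks far away by this distance, such as TRIB3 at rank 7171. A far rank therefore does not mean another direction. With 1 FPKM added, 3 of the 5 genes were still among the nearest 5, and with a minimum of 20 reads 1 was.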

How the data were processed

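RNA of Huh7 and PLC cells was extracted by the authors with TRIzol, depleted of rRNA and built into directional libraries, 1 for each line and glucose concentration. The deposited values are raw counts per gene, as whole numbers. The submitters' processing notes name HISAT2, featureCounts and the build hg38, while versions, gene annotation and strand setting are not given in the sources used here. Of 59657 data lines, 5 that make up a broken ANK2 entry were left out, which left 59652 genes. Its 37 mitochondrial genes had 0 reads.

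The 10 genes and all gene lists were chosen with earlier results of these data known. FPKM was computed from the counts, the gene length of the table and the library total (16049686 to 30279716 reads). The thresholds of FPKM and ratio are those the study stated for lncRNAs, but its FPKM came from StringTie, so values here may differ from its own, and the added 0.1 was chosen here. The shared change and the line difference were tested with edgeR 4.0.16 (filterByExpr, TMM, quasi-likelihood) in R 4.3.3, with Benjamini-Hochberg adjustment, and the SE was the log2 fold change divided by the root of F. Intervals cover counting error only and were computed with scipy 1.17.1. No source says that libraries came from separate cultures, so p-values measure only the spread between these libraries.

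Named genes were the 10 genes, list members, genes overlapping the 10 and their pseudogenes, and the 5 genes nearest to ATF4. Promoter windows used RefSeq starts on GRCh38. Alternatives were other pseudocounts, filters, scalings and ratio thresholds, no line block, DESeq2 1.42.0 and limma 3.58.1. The code was tested on simulated data.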

Additional observations from a re-analysis of the deposited data

Results flagged for a closer look

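CEBPD, a C/EBP relative of the regulators, had a ratio of 25 mM to 5 mM glucose of 0.590 in Huh7 cells, from 50 and 40 reads, and of 1.53 in PLC cells, from 905 and 733 reads. It was picked out because it passed the thresholds downwards in one line and upwards in the other, and 939 of all genes passed in opposite directions in the lines. The upward call did not hold under other scaling, chosen after seeing the data, with PLC ratios of 1.40 (TMM) and 1.39 (DESeq2 size factors) and Huh7 ratios of 0.576 and 0.582. Whether the lines differ was not tested, since there is 1 library for each line and condition. The level was much higher in PLC cells, by 4.38 on the log2 scale (edgeR adjusted p = 1.16e-06).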

How the results depend on the processing

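The count of 9 of the 10 genes past the ratio thresholds was the same in each line and in both lines under pseudocounts of 0 and 1, TMM and DESeq2 scaling, 2 stricter FPKM filters and a minimum of 20 reads. Over these alternatives, 333 (minimum of 20 reads) to 842 (TMM) of all genes were lower in both lines. With ratios over 2 or under 0.5 the count was 7, 7 and 6 (Huh7, PLC, both). Of all genes, 1510 were then lower and 1556 higher among 21864 in Huh7 cells. The numbers were 2037 and 3216 among 21749 in PLC cells, and 253 and 307 among 18108 in both. The 7 genes with a shared change in edgeR were 6 with RLE size factors, 9 without the filter on low counts, 5 with at least 10 counts in every library, 8 with DESeq2 and 5 with limma. Without the cell line block edgeR called 0 of them, 0 list genes and 0 genes in all, with 4 of the 10 and 52 of all genes at an unadjusted p under 0.05. The 19 list genes were 18 with RLE size factors, 29 without the filter, 7 with at least 10 counts, 25 with DESeq2 and 6 with limma. Over all genes, 73 lower and 15 higher became 284 and 242 without the filter, 27 and 0 with at least 10 counts, 126 and 71 with DESeq2, and 21 and 0 with limma. The cause of these shifts was not tested. The shared log2 fold change of ATF5 had the opposite sign, at 0.0010 with RLE size factors, 0.0024 with at least 10 counts and 0.016 without the block. The 6 line differences and the 9 differences in response between lines were as many under every alternative run for them. Pairing within a line is the cell line block itself. No paired analysis was possible by replicate number because the labels carry none, and with 1 library for each line and condition none could be left out. Depth limits CHAC1 and DDIT4 in Huh7 cells at 25 mM, at 35 and 73 reads.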
